A study of Mus musculus with 27 samples.

Results

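The aldo-keto reductases of mouse liver described here were Akr1c6, Akr1c12, Akr1c13, Akr1c14, Akr1c19 and Akr1c20 of the Akr1c subfamily, and Akr1d1. The genes were chosen by name with earlier results of these pups known. Each was read from the probe set chosen by the highest mean over all 27 arrays among those listed with that gene alone. That choice decided nothing, because each of the 7 genes had 1 such probe set and no probe set shared with another gene. All 7 passed the filters of the study, which asked for 4 or more arrays with an intensity of 20 or more and for an interquartile range (log2) of 0.1 or more, and they are 7 of 10810 genes tested and of 18820 genes measured. Since maternal WSD against LFD is the comparison the genes were put together for, its p-values describe them and are no independent support.

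RNA came from livers of C57Bl/6J pups of 2 weeks of age, 1 array per pup. The groups were 6 male (m-WS) and 6 female (f-WS) offspring of dams on a Western-style diet (WSD, 45% of energy as fat and 196.5 mg cholesterol per kg), and 6 male (m-LF) and 9 female (f-LF) offspring of dams on a low fat diet (LFD, 10% of energy as fat and 18.0 mg cholesterol per kg). Dams ate their diet for 6 weeks before mating and through gestation and lactation, and all were mated with males on control diet. The pups therefore met the diets through the dam, and litters had been standardised in size by the study. Values are log2 intensities, and a gene is said to have risen or fallen when its p in the limma fit was at most 0.01.

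Aldo-keto reductases use nicotinamide cofactors to reduce or oxidise carbonyl and hydroxyl groups. Akr1d1 is the steroid 5-beta-reductase that saturates the A ring of bile acid precursors and of steroid hormones, and the Akr1c enzymes are hydroxysteroid dehydrogenases that interconvert active and inactive steroids and also take xenobiotics and prostaglandins. In the liver they take part in bile acid synthesis, in the clearance of steroid hormones and in the detoxification of dihydrodiols. The mouse Akr1c genes lie side by side on chromosome 13, in the order Akr1c14, Akr1c18, Akr1c13, Akr1c19, Akr1c12, Akr1c6, Akr1c20 and Akr1c21, whereas Akr1d1 lies on chromosome 6.

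Maternal WSD went with higher Akr1c13 in both sexes and higher Akr1c19, its neighbour in this cluster, in males. The other 5 genes had no called change. None of the 7 had an adjusted p under 0.05 in limma, and neither gene was called without the pups of array number 48, described below. RefSeq promoter windows (GRCm38.p6) were matched for 6 of the 7 genes, Akr1c20 being the exception. Those of Akr1c13, Akr1c19 and Akr1c12 are shown, 250 bases up to the start used for each window. They were chosen because Akr1c13 and Akr1c19 rose, while Akr1c12, whose window is nearly the same as that of Akr1c13, did not pass the test. Capitals mark CATTAG, a repeat noticed in these letters and searched on both strands. The windows are chr13:4190937-4191186 (plus strand) for Akr1c13, chr13:4233490-4233739 (plus strand) for Akr1c19 and chr13:4279400-4279649 (minus strand) for Akr1c12, each written 5′ to 3′.
Akr1c13: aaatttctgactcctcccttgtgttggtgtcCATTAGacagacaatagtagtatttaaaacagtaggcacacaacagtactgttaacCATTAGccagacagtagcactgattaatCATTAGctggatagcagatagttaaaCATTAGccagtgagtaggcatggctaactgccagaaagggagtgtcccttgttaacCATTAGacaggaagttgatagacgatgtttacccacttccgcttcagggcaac
Akr1c19: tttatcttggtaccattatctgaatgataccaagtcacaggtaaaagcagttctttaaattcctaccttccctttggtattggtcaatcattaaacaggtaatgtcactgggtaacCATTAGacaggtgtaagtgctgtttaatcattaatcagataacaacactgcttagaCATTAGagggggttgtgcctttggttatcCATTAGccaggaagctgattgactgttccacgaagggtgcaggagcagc
Akr1c12: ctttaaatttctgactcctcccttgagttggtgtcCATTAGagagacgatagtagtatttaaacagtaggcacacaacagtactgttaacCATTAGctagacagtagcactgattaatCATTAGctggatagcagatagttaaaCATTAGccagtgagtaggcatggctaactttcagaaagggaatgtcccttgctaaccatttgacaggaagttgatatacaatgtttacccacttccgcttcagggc

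CATTAG occurred 5 times in the Akr1c13 window, 3 times in that of Akr1c19 and 4 times in that of Akr1c12. It occurred once in the window of Akr1c6 and not in those of Akr1c14 and Akr1d1. Of all 32851 RefSeq windows of this length, 6.36% held the repeat, 0.0244% held it at least 3 times, 0.00913% at least 4 times and 0.00304% at least 5 times. These windows include those of the reductases, in whose letters the repeat was noticed, so the shares are no test of rarity. The matches began 219, 163, 135, 109 and 53 bases before the start in Akr1c13 and 215, 160, 132 and 106 bases before it in Akr1c12. At the place of the match nearest the start in Akr1c13, the like letters of Akr1c12 read catttg, which is no match. In Akr1c19 the matches began 134, 78 and 49 bases before the start used. As annotated, however, Akr1c19 begins at chr13:4233503, so most of its window and these matches lie inside the gene. Akr1c13 begins at chr13:4191168, so the last bases of its window also lie inside its gene. A global alignment placed 235 identical bases in 246 aligned positions of Akr1c13 and Akr1c12, and 157 in 238 of Akr1c13 and Akr1c19. TGACNNNGC, the core of the NRF2 element, was in none of the 6 windows and in 10.2% of all windows. TTCNNNGAA, the STAT element, had 1 match among the 6 windows, against 7.02% of all windows. It lay 24 bases before the start used for Akr1c19, and so inside the annotated gene. The matches are letters in these windows, and no binding was measured.

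Some features of the pups bear on the comparisons. Among males, 2 gave a signal of Xist, the RNA of the inactive X chromosome: 7.92 in m-WS1 and 9.30 in m-LF6, against 3.25 to 4.50 in the other 10 males and at least 11.67 in the females, so the calls of reductases in males are also given without them. Each array name held a number, 39, 40 or 48 on WSD and 37, 49 or 50 on LFD. What it marks is not given in the sources used here. Each number lay within 1 maternal diet, and if pups of a number share a litter, p-values that take pups as independent are too small. Liver was labelled and found: of 12 hepatocyte markers 11 were measured, all above the intensity of 20 on every array, with a summed log2 intensity of 15.98 to 16.09 in m-WS, 15.91 to 16.09 in m-LF, 15.96 to 16.07 in f-WS and 15.98 to 16.10 in f-LF.

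Akr1c13, a hydroxysteroid dehydrogenase of the group that uses NAD, rose in both sexes. In males it lay at 7.17, 7.35 and 7.54 (lowest, median, highest log2 intensity) on WSD, against 6.89, 7.09 and 7.17 on LFD. The ranges of the males did not overlap, although the lowest WSD male exceeded the highest LFD male by only 0.0022. These pups were m-WS1 and m-LF6, the males with an Xist signal. The log2 fold change was 0.28 (SE 0.07, 95% interval 0.14 to 0.43, 1.22-fold, adjusted p = 0.0537 in limma). In females it lay at 7.11, 7.26 and 7.51 on WSD, against 6.89, 7.09 and 7.23 on LFD, and 4 of the 6 WSD females exceeded the highest LFD female. The change in females was 0.19 (SE 0.06, 95% interval 0.06 to 0.32, 1.14-fold, adjusted p = 0.169 in limma). That call was lost when f-LF4, f-LF5, f-LF7, f-WS3, f-WS5 or f-WS6 was left out, with changes of 0.15 to 0.19, whereas the call in males held without any single pup (0.24 to 0.32).

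Akr1c19, its neighbour and likewise a dehydrogenase of hydroxysteroids and other alcohols, rose in males. Its values in males were 6.91, 7.19 and 7.60 on WSD and 6.50, 6.70 and 6.90 on LFD. Again no LFD male reached the lowest WSD male, m-WS1, by a margin of 0.0089. The change was 0.52 (SE 0.13, 95% interval 0.25 to 0.78, 1.43-fold, adjusted p = 0.057 in limma), called in each fit that left out 1 pup (0.44 to 0.57). Among females it lay at 6.68, 6.99 and 7.66 on WSD, against 6.48, 6.82 and 7.13 on LFD. There 2 of the 6 WSD females stood above every LFD female and 4 within the LFD range, with a change of 0.32 (SE 0.12, 95% interval 0.08 to 0.57, adjusted p = 0.204 in limma) that missed the threshold. Without single pups it ran from 0.21 (without f-WS5) to 0.41 (without f-WS4), and it was called when f-LF8, f-WS1, f-WS4 or m-WS6 was left out (0.32 to 0.41). For single genes, an exact permutation test over pups gave p = 0.00216 for Akr1c13 and for Akr1c19 in males, and p = 0.00959 and p = 0.045 in females. The value in males is the smallest that 6 against 6 pups allow. Ranges that do not overlap always give it, so it adds nothing to them.

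**Figure D1:**
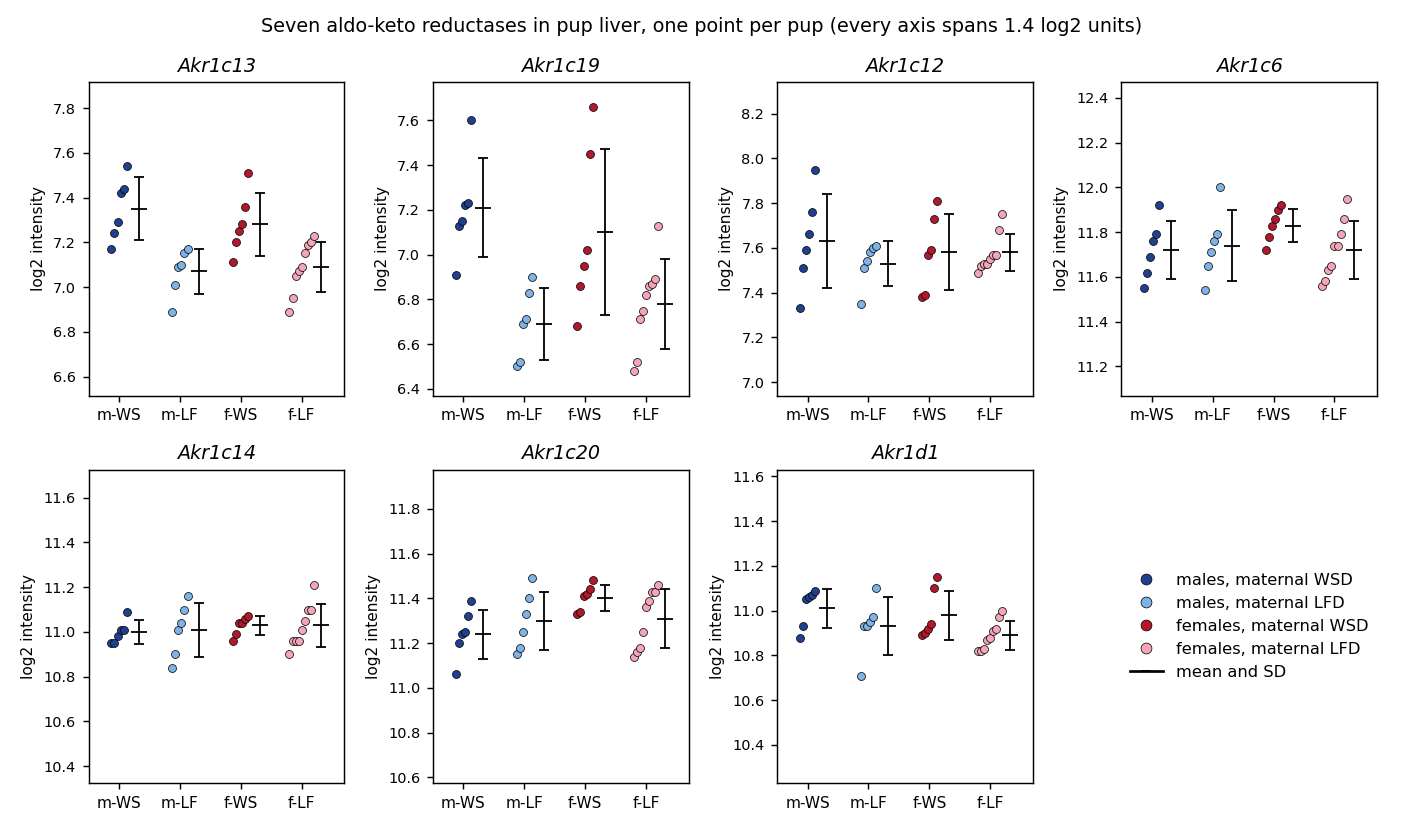
Log2 intensity (y axis) of the 7 reductases in each pup, with the groups m-WS, m-LF, f-WS and f-LF along the x axis and the mean and SD (bars) beside the points. Every y axis spans the same number of log2 units. Male WSD pups lie above all male LFD pups for Akr1c13 (7.17 to 7.54 against 6.89 to 7.17) and Akr1c19 (6.91 to 7.60 against 6.50 to 6.90), and the groups overlap for the other 5 genes.

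Thus 2 of the 7 genes rose and none fell in males at p of at most 0.01, where 3.02% of the genes tested rose and 2.6% fell. In females 1 rose and none fell, where 3.6% of all genes rose and 1.59% fell. Akr1c13 was the single reductase of the 7 called in both sexes, a pattern held by 0.25% of the genes tested. A WSD range wholly above the LFD range was seen for 2 of the 7 in males, against 0.851% of all genes, and for none in females, against 0.342%. No member had an adjusted p under 0.05 in limma, where 0.731% of the genes did so in males and 0.305% in females; at an unadjusted p of at most 0.05 the same 2 genes stood out in each sex. The median log2 fold change of the 7 genes was 0.08 in males and 0.09 in females, beside 0.01 over all genes tested in each sex.

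Akr1c12, another NAD-dependent dehydrogenase of this group, showed log2 intensities of 7.33, 7.63 and 7.95 in m-WS and 7.35, 7.56 and 7.61 in m-LF. The WSD males spread more widely than the LFD males, and the groups overlapped. The limma estimates were 0.10 in males (95% interval -0.06 to 0.27) and 0.00 in females (-0.15 to 0.15). In females the values were 7.38, 7.58 and 7.81 on WSD and 7.49, 7.55 and 7.75 on LFD. Probes of near-identical copies such as Akr1c12 and Akr1c13 can bind each other's transcripts, and how far these probe sets keep the 2 genes apart was not tested.

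Akr1c6, the hepatic 17-beta-hydroxysteroid dehydrogenase of the mouse, lay at 11.55, 11.72 and 11.92 in m-WS and at 11.54, 11.74 and 12.00 in m-LF. In females it was 11.72, 11.85 and 11.92 on WSD and 11.56, 11.74 and 11.95 on LFD, so every WSD pup fell within the LFD range of its sex. The estimates were -0.02 in males (95% interval -0.17 to 0.13) and 0.11 in females (-0.02 to 0.24).

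Akr1c14, a 3-alpha-hydroxysteroid dehydrogenase that clears dihydrotestosterone and forms neurosteroids, was the steadiest of the genes. Its log2 intensity was 10.95 to 11.09 in m-WS, 10.84 to 11.16 in m-LF, 10.96 to 11.07 in f-WS and 10.90 to 11.21 in f-LF. The WSD pups lay inside the LFD range in both sexes. The change was -0.01 in males (95% interval -0.11 to 0.10) and 0.00 in females (-0.10 to 0.10).

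Akr1c20, another hydroxysteroid dehydrogenase of the liver, had log2 intensities of 11.06, 11.24 and 11.39 in m-WS and 11.15, 11.29 and 11.49 in m-LF. In females they were 11.33, 11.41 and 11.48 on WSD and 11.14, 11.36 and 11.46 on LFD. Its estimates carried opposite signs in the sexes, -0.06 in males (95% interval -0.19 to 0.08) and 0.09 in females (-0.03 to 0.21). The difference between them was -0.15 (95% interval -0.33 to 0.03) and missed the threshold (adjusted p = 0.59 in limma).

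Akr1d1, the 5-beta-reductase, lay at 10.88, 11.05 and 11.09 in m-WS and 10.71, 10.94 and 11.10 in m-LF. In females its values were 10.89, 10.93 and 11.15 on WSD and 10.82, 10.88 and 11.00 on LFD, with 2 WSD females above every LFD female. The change was 0.08 in males (95% interval -0.04 to 0.20) and 0.09 in females (-0.01 to 0.20), neither passing the test.

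**Figure D2:**
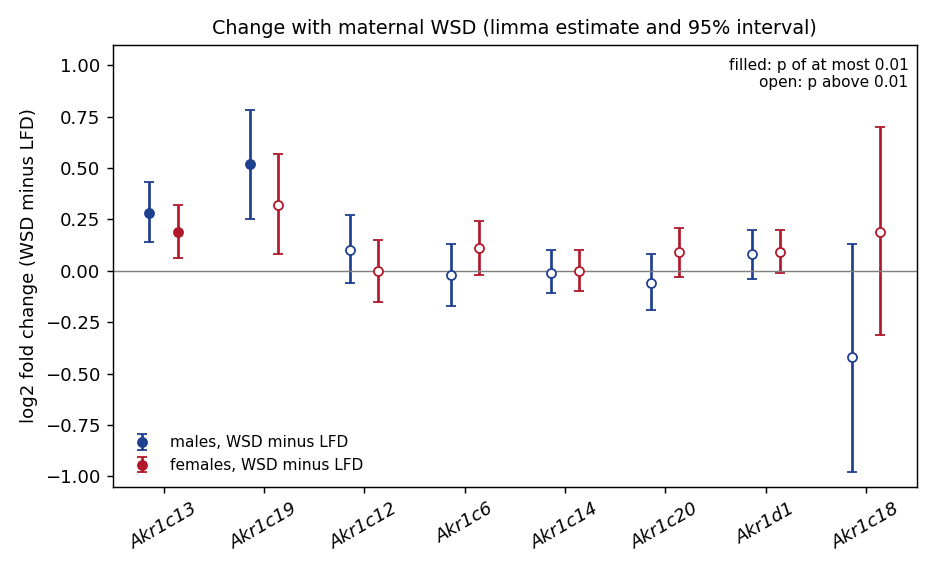
Log2 fold change of maternal WSD against LFD (y axis) of the 7 reductases and Akr1c18 (x axis) in males and females, as the limma estimate with its 95% interval. Filled points have a p of at most 0.01: Akr1c13 in males (0.28) and females (0.19) and Akr1c19 in males (0.52); the interval of Akr1c18 is the widest, from -0.98 to 0.13 in males.

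The response of the reductases was next compared between the sexes. None of the 7 was called for the difference between the male and the female change, against 1.17% of all genes called higher and 1.32% called lower. The male minus female difference of the changes was 0.09 for Akr1c13 (95% interval -0.11 to 0.29) and 0.19 for Akr1c19 (-0.17 to 0.56), so a larger response of Akr1c19 in either sex is within the interval. Nor was any member called between males and females on WSD, against 3.35% of all genes, or on LFD, against 1.37%. The nearest to the threshold was Akr1c20 on WSD, at 11.24 ± 0.11 in m-WS and 11.40 ± 0.058 in f-WS (SD, n = 6 each), with a male minus female difference of -0.16 (95% interval -0.29 to -0.03, adjusted p = 0.346 in limma). On LFD the 7 differences between the sexes ran from -0.09 to 0.04.

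The WSD pups of array number 48 had the highest mean of both genes. For Akr1c19, the 6 pups of number 48 (4 males and 2 females) averaged 7.38 and ran from 7.13 to 7.66, and the other WSD numbers averaged 6.92 (number 40) and 6.94 (number 39). The LFD numbers averaged 6.75 (number 37), 6.63 (number 49) and 6.90 (number 50). Pups of number 40 (6.68 to 7.15) and number 39 (6.86 to 7.02) overlapped those of number 50 on LFD (6.69 to 7.13). For Akr1c13 all 3 WSD numbers averaged higher than all 3 LFD numbers: 7.38 (number 48), 7.26 (number 40) and 7.22 (number 39), against 7.13 (number 37), 7.01 (number 49) and 7.12 (number 50).

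Without number 48 neither gene was called in either sex. In males Akr1c13 then changed by 0.23 and Akr1c19 by 0.34, and in females by 0.14 and 0.10. In females Akr1c13 was also not called without number 49 (0.11) or number 50 (0.20). Within each array prefix alone it was called in neither sex (males 0.25 in G073 and 0.34 in G074, females 0.18 and 0.21). Akr1c19 in males was called within G074 (0.73) and not within G073 (0.35). In females Akr1c19 was called within neither prefix (0.38 in G073 and 0.20 in G074). With the number as a random block, both genes kept their call in males and Akr1c13 lost it in females (0.19). That fit used 1 correlation for all genes (0.0887), so a stronger likeness within numbers of a single gene was not accounted for. When arrays that shared number and sex were averaged first, Akr1c13 was called in males and Akr1c19 was not. Without m-WS1 and m-LF6 the changes in males were 0.34 for Akr1c13 and 0.57 for Akr1c19, both called.

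**Figure D3:**
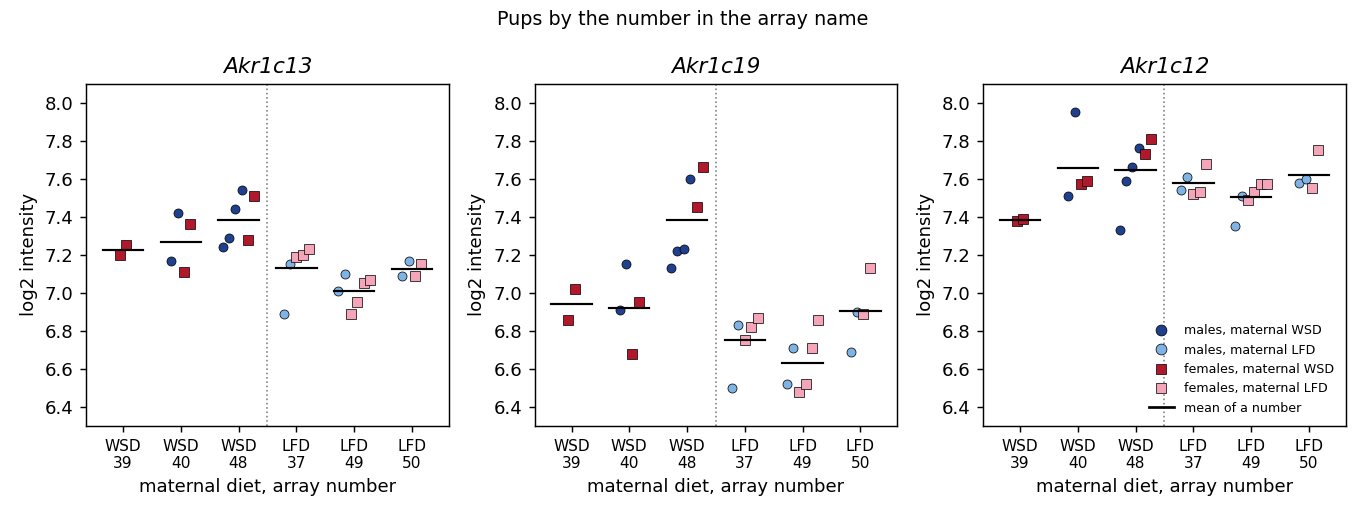
Log2 intensity (y axis) of Akr1c13, Akr1c19 and Akr1c12 in each pup, grouped by maternal diet and by the number in the array name (x axis), with circles for males, squares for females and a line at the mean of each number. For Akr1c19 number 48 averages 7.38 and the other 5 numbers 6.63 to 6.94; for Akr1c13 the WSD numbers average 7.22 to 7.38 and the LFD numbers 7.01 to 7.13.

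How much the genes varied among pups of the same group also set them apart. The residual SD was 0.25 for Akr1c19, higher than or equal to that of 93.1% of the genes tested, and 0.086 for Akr1c14, at the 8.4 percentile. Those of Akr1c6 (0.13), Akr1c12 (0.14), Akr1c13 (0.12), Akr1c20 (0.11) and Akr1d1 (0.097) were near or under the median gene (0.13).

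Correlations among the 7 genes were computed within groups. Values were centred on the group means, and r is Pearson's over the 27 pups, some of which share a number; p-values are from permutations of the pups within groups, adjusted over the 21 pairs. Akr1c6, Akr1c20 and Akr1c14 varied together, with r = 0.86 for Akr1c6 and Akr1c20 (Spearman's rho 0.79, adjusted permutation p = 0.00021 and 0.00084), 0.61 for Akr1c6 and Akr1c14 (rho 0.61, adjusted permutation p = 0.026 and 0.013) and 0.57 for Akr1c14 and Akr1c20 (rho 0.55, adjusted permutation p = 0.046 and 0.04). Without the 2 pups farthest from the median of the first gene named in each pair, these were 0.84, 0.58 and 0.50. Pups far out for the second gene only were kept. Centred on array number and sex instead, they were 0.82, 0.62 and 0.55.

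Akr1c12 correlated with Akr1d1 (r = 0.55, rho 0.63, adjusted permutation p = 0.046 and 0.013) and with Akr1c13 (r = 0.52, rho 0.53, adjusted permutation p = 0.05 and 0.04). Centred on array number and sex, these were 0.67 and 0.61. Akr1c13 and Akr1c19, the genes that rose, had r = 0.51 (rho 0.50, adjusted permutation p = 0.05 and 0.046). This fell to 0.41 without the 2 pups farthest from the Akr1c13 median and to 0.27 when values were centred on array number and sex. Akr1c19 showed no positive r with Akr1c6, Akr1c14 or Akr1c20 (-0.01, -0.17 and -0.16). With Akr1d1 its r was 0.30, and -0.32 after centring on array number and sex.

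**Figure D4:**
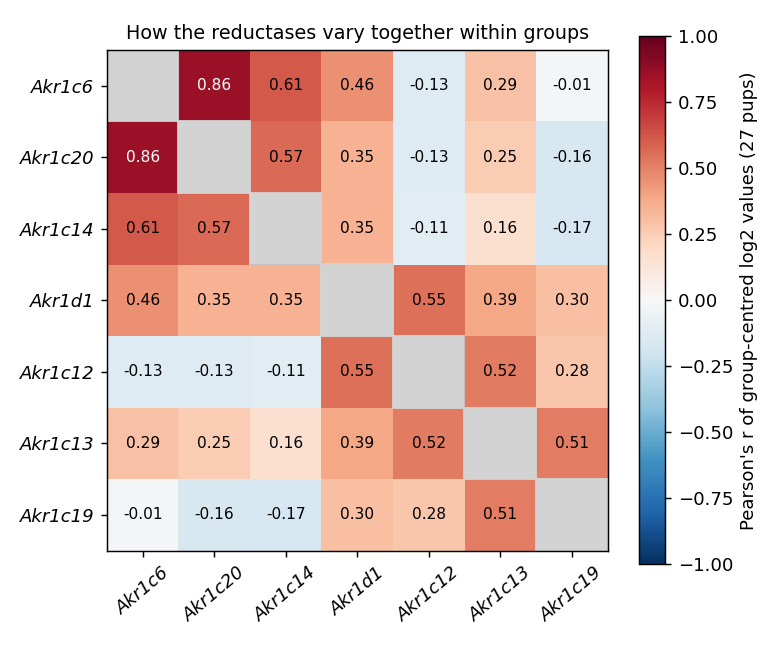
Pearson's r between the 7 reductases (both axes) over the 27 pups, with log2 intensities centred on the group means. Akr1c6, Akr1c20 and Akr1c14 form a set with r of 0.57 to 0.86, and Akr1c13 has r of 0.52 with Akr1c12 and 0.51 with Akr1c19.

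The genes whose values followed each reductase most closely were taken over the same 27 pups and all genes tested, as a description with no test. Nearest to Akr1c13 were Sult1b1, a sulfotransferase of thyroid hormones and phenols (r = 0.76), Slc25a29, a mitochondrial carrier of basic amino acids (0.72), and Gzf1 (0.70). Nearest to Akr1c19 were Nnmt, the nicotinamide N-methyltransferase (0.76), Cabcoco1 (0.74) and Lrit1 (0.71). Nnmt rose by 1.18 on the log2 scale in males (adjusted p = 0.138 in limma) and was not called without array number 48 (0.32), 37 (1.14) or 49 (1.06). Its r with Akr1c19 was 0.53 after centring on array number and sex. Akr1c6 was followed by Impa1, an inositol monophosphatase (0.86), Idh3a, a subunit of mitochondrial isocitrate dehydrogenase (0.81), and Ccdc25 (0.81).

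For Akr1c20 the nearest were Gcdh, the glutaryl-CoA dehydrogenase (0.83), Tmem19 (0.83) and Aifm1, a mitochondrial flavoprotein (0.81), with r of 0.88 to 0.90 after centring on array number and sex. Akr1c14 was followed by Rabgap1l (0.84), Gem (0.78) and Gm13274 (0.78). Akr1c12 had lower values, with Ttc32 (0.72), Wdr81 (0.72) and the potassium channel Kcnn2 (0.70). Akr1d1 was followed by the protocadherin Cdhr5 (0.82), Ttc39b (0.78) and the organic anion transporter Slco1a4 (0.77).

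The subfamily holds 2 further genes on the array. Akr1c18, the 20-alpha-hydroxysteroid dehydrogenase that inactivates progesterone, varied more than any of the 7, with a residual SD of 0.52 at the 99.3 percentile. It lay at 9.67, 9.89 and 10.03 in m-WS and at 9.19, 10.25 and 11.57 in m-LF, where the WSD males were close together and the LFD males spread on both sides of them. In females it was 9.83, 10.33 and 10.83 on WSD and 9.20, 10.14 and 10.56 on LFD. Neither the male change of -0.42 (95% interval -0.98 to 0.13) nor the female change of 0.19 (-0.31 to 0.70) passed the test. Single pups moved both, in males to -0.17 without m-LF5 and -0.64 without m-LF6, and in females to 0.08 without f-LF8 and 0.09 without f-LF9 or f-WS3. Both the lowest and the highest LFD male, m-LF6 and m-LF5, and both lowest LFD females bore number 50. Akr1c21, described in mouse kidney, was at 3.32 to 3.63 on all arrays, under the log2 value of 4.32 that stands for an intensity of 20, and was not tested.

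Counts of called genes in the lists below stand beside 3.02% of all genes that rose and 2.6% that fell in males. In females 3.6% of all genes rose and 1.59% fell. Among 11 other aldo-keto reductases, 8 were measured and 5 tested, these including Akr1c18. Akr1e1, a reductase of anhydrofructose, rose in females by 0.15 (adjusted p = 0.164 in limma), with 9.44 to 9.67 in f-WS and 9.23 to 9.47 in f-LF. It was not called without array number 37 (0.16), 40 (0.15), 48 (0.13) or 49 (0.11). No other gene of that list was called, and none in males.

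Akr1d1 acts within bile acid synthesis, of which 13 of 14 listed genes were tested. In males 2 fell and none rose, and in females 1 fell and none rose, with medians of -0.11 and -0.04 beside 0.01 over all genes. Cyp39a1, an oxysterol 7-alpha-hydroxylase, fell by 0.58 in males (adjusted p = 0.0631 in limma), with 9.69 to 10.13 in m-WS and 9.76 to 10.83 in m-LF. It was not called without array number 37 (-0.43) or 49 (-0.45). Amacr, the racemase of the side chain, fell by 0.20 in males (adjusted p = 0.133), with 10.64 to 10.94 in m-WS and 10.86 to 11.16 in m-LF, and was not called without number 37 (-0.15), 40 (-0.14) or 49 (-0.18). Baat, which conjugates bile acids with amino acids, fell by 0.45 in females (adjusted p = 0.164), with 7.19 to 8.67 in f-WS and 8.04 to 8.52 in f-LF, and was not called without number 37 (-0.40), 39 (-0.30), 40 (-0.29) or 49 (-0.51).

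Of 23 steroid reductases and dehydrogenases outside the family, 16 were tested, of which 1 rose and 1 fell in males, and 1 rose and none fell in females. Hsd17b13, a lipid droplet dehydrogenase of the liver, rose by 0.25 in males (adjusted p = 0.0392 in limma), with 10.97 to 11.15 in m-WS and 10.73 to 10.90 in m-LF. Hsd11b1, which regenerates active glucocorticoid, fell by 0.15 in males (adjusted p = 0.128), and was not called without array number 48 (-0.10) or 49 (-0.14). Hsd17b12, which also elongates fatty acids, rose by 0.20 in females (adjusted p = 0.171), and was not called without number 39 (0.20), 40 (0.14) or 49 (0.17).

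Lists of targets and regulators known for such enzymes were read in the same way. Of the NRF2 targets, which respond to oxidants and electrophiles, 12 were tested, of which 2 rose in males and 1 in females, with none falling and medians of -0.02 and 0.00. These were Ugdh, which makes UDP-glucuronic acid (0.26, adjusted p = 0.0745 in limma), and Gclc, the catalytic subunit for glutathione synthesis (0.14, adjusted p = 0.142), in males, and the aldehyde oxidase Aox1 (0.23, adjusted p = 0.118) in females. Ugdh was not called without array number 48 (0.09) or 49 (0.22), Gclc without number 37 (0.09), 40 (0.11) or 49 (0.14), and Aox1 without number 39 (0.19), 40 (0.22) or 49 (0.21). Of the CAR and PXR targets, which respond to xenobiotics and bile acids, 14 were tested. In males 2 rose and 4 fell, and in females none rose and 1 fell. Cyp2b10, a monooxygenase under the control of CAR, rose by 1.78 in males (adjusted p = 0.007 in limma), with 7.71 to 8.53 in m-WS and 5.77 to 7.93 in m-LF. Its relative Cyp2c50 fell by 1.52 in males (adjusted p = 0.00448), and Cyp2c29 fell by 0.28 in females (adjusted p = 0.168), not called without array number 37 (-0.21), 39 (-0.25), 40 (-0.15) or 49 (-0.30). Of 12 regulators tested, Nr5a2, a nuclear receptor of bile acid genes, was the one called, rising by 0.21 in males (adjusted p = 0.057 in limma).

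Some markers of other cell types were called with maternal diet beside Akr1c13 and Akr1c19. Over all genes tested, 3.02% rose and 2.6% fell in males, and 3.6% rose and 1.59% fell in females. Of the gut epithelium list, 9 of 10 genes were measured and 4 tested, and Krt20 rose in males (1.19) and females (0.91) and Fabp2 in females (0.52). The other tested genes of that list, Cdx1 and Lgals4, were not called (0.06 and -0.22 in males, 0.00 and -0.03 in females). Of the list, 4 genes reached an intensity of 20 on all arrays, and Cdx2, Cdh17 and Reg3g reached it on none. The summed log2 intensity of that list was 10.28 to 10.73 in m-WS, 10.09 to 10.37 in m-LF, 10.44 to 10.82 in f-WS and 10.02 to 10.28 in f-LF. In males 4 of 7 B cell markers tested rose (summed log2 intensity 9.52 to 10.13 in m-WS, 8.56 to 10.01 in m-LF) and 3 of 10 of neutrophils and their precursors (9.65 to 10.40 in m-WS, 8.64 to 10.53 in m-LF), with none of either called in females. The median log2 fold change of the B cell markers tested was 0.73 in males and 0.30 in females. That of the neutrophil markers was 0.67 in males and 0.38 in females, beside 0.01 over all genes tested in each sex. In males 2 of 8 markers of stellate cells and fibroblasts and 1 of 9 each of Kupffer cells and liver endothelium fell. The median log2 fold changes of these lists in males were 0.00, -0.07 and 0.01, in that order. In males 1 of 5 cholangiocyte markers rose (8.18 to 8.41 in m-WS, 7.78 to 8.90 in m-LF), but the median log2 fold change of those tested was -0.17. Also in males, 1 of 5 markers of adrenal and gonadal steroidogenic cells fell (8.78 to 9.26 in m-WS, 9.12 to 9.62 in m-LF), with a median of 0.00. In females 1 of 6 erythroid markers rose (10.32 to 10.73 in f-WS, 10.23 to 10.71 in f-LF), but the median log2 fold change of those tested was -0.09. No marker was called of the 3 tested of hepatocytes, 6 of stomach epithelium, 3 of kidney tubule, 3 of adipose tissue and 2 of pancreatic acini, and the stomach markers Gkn1, Gkn2 and Muc5ac never reached an intensity of 20. The part of these cells in the values of the reductases was not tested, and in whole liver fewer cells of a type and less RNA per cell cannot be told apart.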

How the data were processed

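The deposited table holds log2 intensities of 35556 probe sets of the Mouse Gene 1.1 ST array, made by the authors with RMA (background correction, quantile normalisation and summarisation over all arrays); the RMA version is not given in the sources used here. The study's methods name probe sets regrouped by Entrez gene, whereas this table keeps those of the manufacturer. Of these, 21218 are listed with 1 gene, 1881 with several and 12457 with none, and the one of highest mean was kept per gene. For genes that passed the filters, limma 3.58.1 in R 4.3.3 estimated 4 group means with an intensity trend, in place of the IBMT statistic of the study, and p was adjusted by Benjamini and Hochberg over 10810 genes. The fit was tested on simulated data in which pups were independent, so that test could not show the effect of likeness among pups of an array number. Values of single genes were compared by 2-sided exact permutation tests, and correlations by 1e+05 permutations. Array medians lay between 5.34 and 5.43, and the number of arrays limits the precision. Promoter windows were aligned with Biopython 1.88, and figures drawn with matplotlib 3.10.9.

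The reductases and the gene lists were chosen with earlier results of these data known. By rule, named genes were the reductases, Akr1c18 and Akr1c21, per list of no cell type up to 2 genes of smallest p per diet comparison, and the 3 genes nearest to each reductase. Krt20, Fabp2, Cdx1, Lgals4 and the markers never at an intensity of 20 were added after their values were seen. Nothing says that pups of a group came from separate litters. Alternatives were other filters, prior variances, normalisations and thresholds, array weights, each sex alone, the array number, prefix and replicate number, and leaving out pups or array numbers.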

Additional observations from a re-analysis of the deposited data

Results flagged for a closer look

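Of the genes named beside the reductases, 2 were called in the limma test of the difference between the male and the female diet response. Over all genes tested, 1.17% were called higher and 1.32% lower for this difference. Both genes had been named for their small p in males, which the difference uses again, so these calls are no independent support. For Cyp2b10 the male change exceeded the female change by 1.25 on the log2 scale (adjusted p = 0.386 in limma). Its means were 8.13 in m-WS and 6.34 in m-LF, and 7.54 in f-WS and 7.00 in f-LF. Leaving out array number 37, 39, 40 or 49 lost this call (0.92 to 1.22), and so did leaving out any of 11 single pups (1.07 to 1.22). For Nr5a2 the difference was 0.21 (adjusted p = 0.386 in limma), with means of 9.30 in m-WS and 9.10 in m-LF, and 9.20 in f-WS and 9.21 in f-LF, and the same 4 numbers (0.13 to 0.22) or any of 7 single pups (0.17 to 0.20) lost the call when left out. Both calls were also lost with arrays averaged by number and sex (1.29 and 0.20), within prefix G073 (1.17 and 0.14), within prefix G074 (1.37 and 0.34) and with the replicate number as a block (1.07 and 0.20). No pup of the 7 reductases, Akr1c18 or Akr1c21 stood apart from its group by Dixon's test in 36 combinations of gene and group, where chance gives about 1.8.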

How the results depend on the processing

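The number of pups and the undefined array numbers limit these results. In males 2 reductases were called in every fit that left out 1 pup. The count was 1 with arrays averaged by number and sex and within prefix G074, and 0 without array number 48, within prefix G073 and at an adjusted p under 0.05. In females the main count was 1, and 0 to 2 in fits without 1 pup. It was 2 with array weights and without array number 39 or 40. It was 0 with arrays centred on their median, with quantile normalisation repeated, with the number as a random block, with averaged arrays, without array number 48 or 49, within either prefix and at an adjusted p under 0.05. On WSD, Akr1c20 was called between males and females (a count of 1) without array number 48 and in 1 fit without a pup (0 to 1). No alternative called the difference between the sexes or the sexes on LFD. Replicate numbers do not pair the pups (mean correlation 0.03 for the same number, 0.00 for others). With the replicate number as a block, 2 reductases were called in males and 1 in females, there Akr1c19 (0.35) in place of Akr1c13 (0.18). No reductase had a second probe set, so taking the mean over the probe sets of a gene changed no call and the alternatives on another or a shared probe set gave no value. Signs turned for some estimates, most of them small but that of Akr1c18 in males not, the cause not tested. In males Akr1c6 turned to 0.02 (without number 37, within G074) and 0.05 (without number 40), Akr1c14 to 0.00 (without number 37, prefix as a block), 0.05 (without number 49) and 0.03 (within G074), and Akr1c18 to 0.41 within G074, while it was -0.84 and called within G073. In females Akr1c12 was 0.10 (without number 39), 0.02 (without number 50, replicate block, within G073) and 0.01 (array weights). Akr1c14 was -0.01 (without number 40, quantile normalisation repeated, prefix as a block, within G073), -0.02 (without number 50, median centring), -0.03 (without number 49, replicate block) and 0.00 (array weights), and Akr1c18 was -0.05 (without number 50) and -0.01 (replicate block). The male minus female difference of Akr1c19 was -0.03 within G073. Without single pups, Akr1c6 ran from -0.06 to 0.03 and Akr1c14 from -0.04 to 0.02 in males, and Akr1c12 from -0.05 to 0.04 and Akr1c14 from -0.02 to 0.02 in females. With averaged arrays the calls of Akr1e1, Hsd17b12, Baat and Cyp2c29 in females and of Cyp39a1, Amacr, Hsd11b1, Ugdh, Gclc, Nr5a2 and Nnmt in males were lost. Within G073 the change was -0.20 for Baat, -0.14 for Cyp2c29 and 0.12 for Aox1 in females, and within G074 -0.37 for Cyp39a1, -0.12 for Amacr, 0.15 for Hsd17b13 and 1.09 for Cyp2b10 in males, none called. Calls of listed genes were lost without single pups for Akr1e1 (4 of 27 fits, 0.12 to 0.14), Baat (6, -0.43 to -0.32), Hsd17b12 (7, 0.17 to 0.20), Cyp2c29 (7, -0.27 to -0.21) and Aox1 (without f-WS2, 0.19) in females, and for Amacr (6, -0.19 to -0.16), Hsd11b1 (3, -0.14 to -0.12), Gclc (7, 0.11 to 0.14) and Nnmt (5, 0.97 to 1.15) in males.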
